A study of Mus musculus with 3 samples.

Results

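The protein tyrosine phosphatases are the enzymes that take phosphate off tyrosine in other proteins. They were measured here as 40 genes of the 35764 gene symbols listed for KPC78 cells, a line from mouse pancreatic ductal adenocarcinoma. The members were chosen by symbol, as listed Ptpn, Ptpr and Ptp4a genes, except where a gene is not reported here. Below, the family means these 40 genes, and ranks and shares within it hold for them alone. The series held 1 group, KPC78 cells labelled wild type, with 3 libraries of polyadenylated RNA that the design text calls biological replicates. The labels state no allele. With no second group among the samples, genes were set against each other inside each library. With 1 cell line, the values describe that line and no other.

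Receptor-type members (Ptpr) span the cell membrane and carry extracellular domains that bind matrix, proteoglycans or the same protein on a neighbouring cell. Non-receptor members (Ptpn) are held at their place of action by SH2, FERM, PDZ or proline-rich modules. The PRL phosphatases (Ptp4a) are small, lipid-anchored enzymes. Some phosphatases oppose receptor kinases and others switch on kinases of the Src family by removing an inhibitory phosphate, so the family is not one of inhibitors only.

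Levels are in TPM, each transcript's share of the library after correction for length, and the libraries summed to between 999728 and 999776 TPM. The read depth behind the table is unknown, so precision is stated from the replicates. Detected means 1 TPM or more in each of the 3 libraries. Of 8 ductal epithelial markers 6 were detected, with Krt18 at 1472 ± 30.96 TPM (SD, n = 3) as the highest, while Epcam, an epithelial surface protein, stood at 0.165 ± 0.0532 TPM (SD, n = 3). Of 6 fibroblast markers 1 was detected, Pdgfrb, and the 6 summed to 38.9 to 48.5 TPM per library. In bulk RNA, a few cells rich in a transcript and many cells poor in it cannot be told apart.

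Of the 40 phosphatase genes 24 were detected, or 60%, where 32.6% of all genes and 55.4% of 19527 protein-coding genes were detected. By kind, 9 of 21 receptor-type genes, 12 of 16 non-receptor genes and 3 of 3 PRL genes were detected. The detected members had a median of 23.5 TPM, against 22.9 TPM for all detected genes. Together the 40 genes summed to 1142, 1122 and 1198 TPM in replicates 1, 2 and 3, or 0.114%, 0.112% and 0.120% of the library. PRL genes gave 34.9% ± 1.83 of that sum, receptor-type genes 38.1% ± 1.28 and non-receptor genes 27.1% ± 0.817 (SD, n = 3). The 10 highest members held 84.1% ± 0.470 of it (SD, n = 3), and such a share was not computed for other sets of genes.

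**Figure D1:**
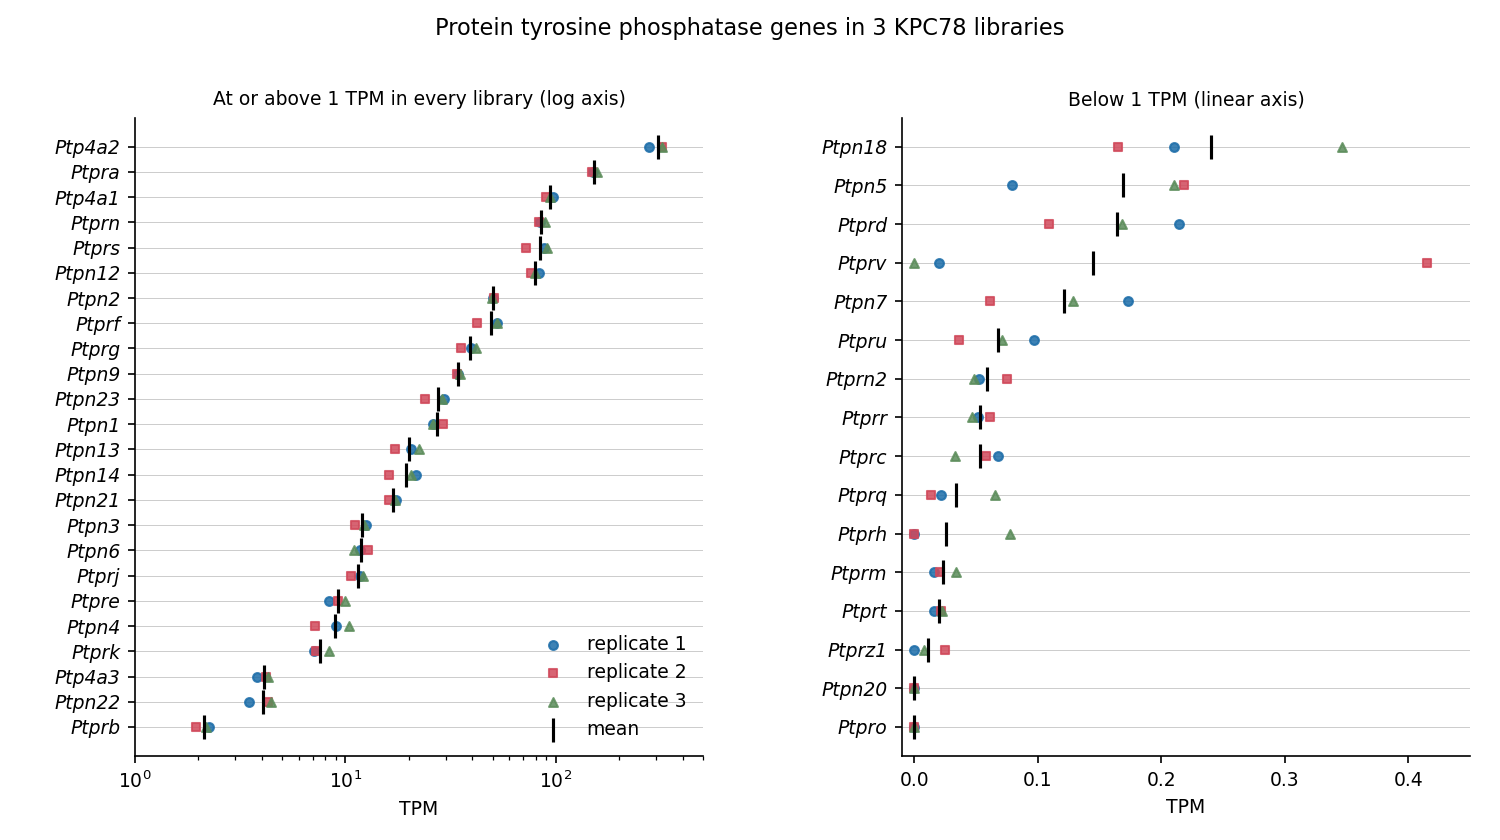
TPM of each phosphatase gene in the 3 libraries, with the mean as a black bar, on a log axis for the 24 detected members (left) and on a linear axis for the 16 others (right). Ptp4a2 leads in every library at 277.9 to 318 TPM, and Ptprv is the only gene below 1 TPM with a value above 0.4, in replicate 2.

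The 5' flanks of 4 members are printed as examples of high and low levels with many and with few CG pairs. Each is the RefSeq window of 250 bases before to 50 bases after a gene start on GRCm38.p6, 5′ to 3′ on the gene's strand, with every CG pair in capitals. Where RefSeq gives several starts, the window with the most CG pairs was taken. Ptp4a2 had the highest level and the most CG pairs, 60, in chr4:129820229-129820528 on the plus strand. Ptprm had 43 CG pairs in chr17:67354410-67354709 on the minus strand, at a mean of 0.0236 TPM. Ptprn had 15 in chr1:75263722-75264021 on the minus strand, at 85.2 TPM. Ptprc had 4 in chr1:138175256-138175555 on the minus strand, at 0.0531 TPM.
Ptp4a2: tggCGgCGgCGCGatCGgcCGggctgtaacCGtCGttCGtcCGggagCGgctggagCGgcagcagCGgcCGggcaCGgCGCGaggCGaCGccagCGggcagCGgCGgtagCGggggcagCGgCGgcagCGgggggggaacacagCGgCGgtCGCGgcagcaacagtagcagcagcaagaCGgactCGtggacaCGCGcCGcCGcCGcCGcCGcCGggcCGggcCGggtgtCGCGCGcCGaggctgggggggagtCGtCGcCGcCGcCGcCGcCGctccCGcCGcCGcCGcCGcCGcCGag
Ptprm: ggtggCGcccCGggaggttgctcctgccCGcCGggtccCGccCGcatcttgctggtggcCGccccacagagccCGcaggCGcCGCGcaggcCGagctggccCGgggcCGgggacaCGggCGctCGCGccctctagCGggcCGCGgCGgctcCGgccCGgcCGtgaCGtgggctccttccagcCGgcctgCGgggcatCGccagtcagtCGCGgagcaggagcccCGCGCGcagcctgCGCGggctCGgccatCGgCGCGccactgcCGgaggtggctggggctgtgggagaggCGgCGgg
Ptprn: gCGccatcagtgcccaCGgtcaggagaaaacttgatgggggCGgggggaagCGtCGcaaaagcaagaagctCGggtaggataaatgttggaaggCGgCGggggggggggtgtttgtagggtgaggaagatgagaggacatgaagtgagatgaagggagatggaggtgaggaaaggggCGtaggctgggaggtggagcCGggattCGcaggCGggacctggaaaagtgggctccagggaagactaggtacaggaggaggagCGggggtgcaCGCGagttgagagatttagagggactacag
Ptprc: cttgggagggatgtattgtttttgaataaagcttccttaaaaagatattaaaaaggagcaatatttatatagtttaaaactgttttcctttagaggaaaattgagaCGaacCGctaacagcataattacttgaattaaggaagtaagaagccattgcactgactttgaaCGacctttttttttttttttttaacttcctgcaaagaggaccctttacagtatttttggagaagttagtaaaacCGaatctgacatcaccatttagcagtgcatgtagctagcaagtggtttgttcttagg

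Of the 40 members 33 had such a window. The 20 detected members among them had a median of 32.5 CG pairs and the 13 others 22, against 23 for 8887 detected genes and 5 for 7093 genes that were not detected. At least 20 CG pairs stood in 16 of the 20 detected members (80%), where 62.1% of all detected genes had them, and in 7 of the 13 others (53.8%), where 16.4% of all genes not detected did. The 7 included the MAM-domain receptor genes Ptprt with 46, Ptprm with 43 and Ptpru with 40. The detected members under 20 CG pairs were the blood-cell phosphatase genes Ptpn6 with 8 and Ptpn22 with 6, and also Ptprn with 15 and Ptpn3 with 18. The motif GGGCGG, which holds a CG pair itself, searched on both strands, was present in 14 of the 20 detected members (70%) and 69.7% of all detected genes. It was present in 7 of the 13 other members (53.8%) and 29.2% of all genes not detected, and in 51.7% of all 15980 windows. TATAAA, searched in the same way, was present in 2 of the 20 detected members (Ptp4a1 and Ptpn22), in 1 of the 13 others (Ptprc), in 6.18% of all detected genes, in 17.4% of genes not detected and in 11.1% of all windows. These are matches of letters in the mouse reference and not measurements of KPC78 DNA.

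The PRL phosphatases were the most abundant subfamily, with a summed level of 402 ± 21.01 TPM (SD, n = 3). Ptp4a2, on the plus strand of chromosome 4 from 129811219 to 129850003 in GENCODE M21, had 277.9, 318 and 318 TPM in replicates 1, 2 and 3 and ranked 476th, 411th and 409th of all genes. It alone made up 26.4% ± 2.03 (SD, n = 3) of the family's TPM. Ptp4a1 had 96.4, 89.6 and 93.7 TPM, below Ptp4a2 in every library by a ratio of 0.308 ± 0.0346 (SD, n = 3). On the log2(TPM + 1) scale the ratio of Ptp4a1 to Ptp4a2 was -1.70, standard error 0.0820 (adjusted p = 2.09e-07, limma), where 99.2% of 15596 genes tested also differed from Ptp4a2. Ptp4a3, often studied for its link to metastasis, was far lower, with 3.78, 4.21 and 4.30 TPM, a ratio of 0.0134 ± 0.000197 to Ptp4a2 (SD, n = 3; log2 ratio -5.91, adjusted p = 6.46e-12, limma). Replicate 1 was the lowest library for both Ptp4a2 and Ptp4a3 and the highest for Ptp4a1. PRL proteins bind the CNNM magnesium transport proteins, of which 3 of 4 were detected (75%), where 55.4% of protein-coding genes were. Cnnm3 stood at 12.8 ± 0.852 TPM, Cnnm2 at 11.3 ± 0.793 TPM and Cnnm4 at 11.3 ± 0.642 TPM (SD, n = 3), each below Ptp4a1 and Ptp4a2 and above Ptp4a3 in mean.

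**Figure D2:**
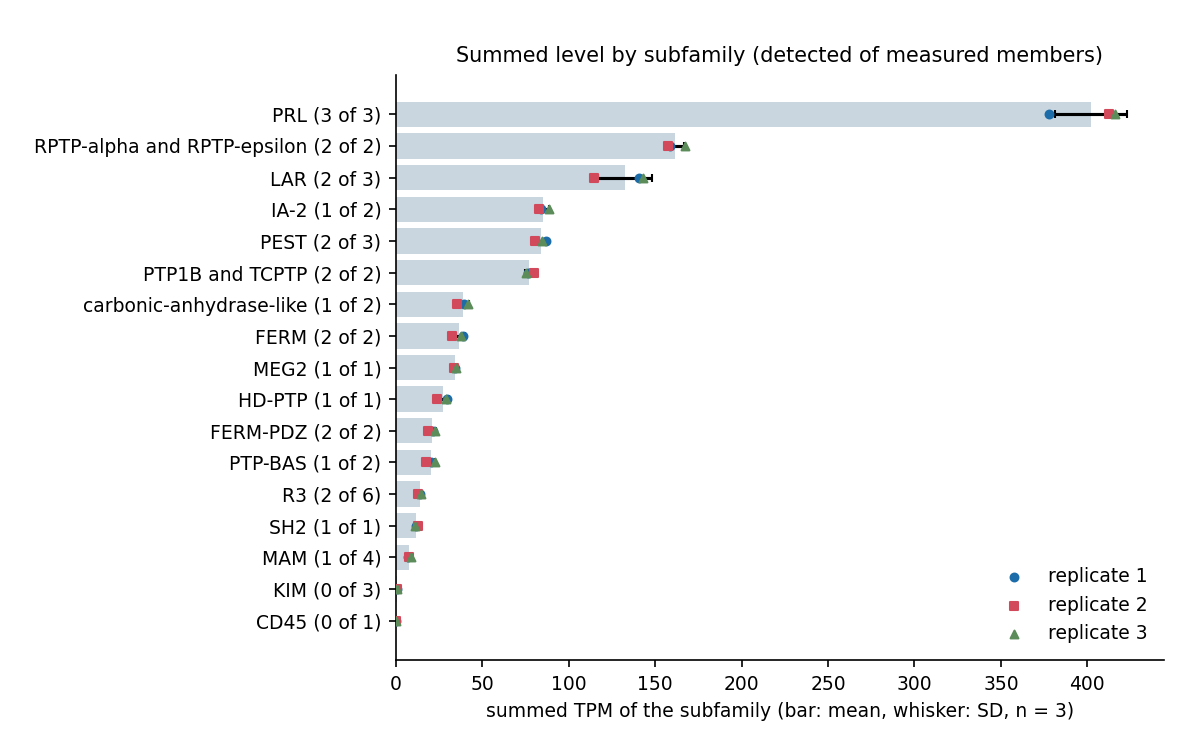
Summed TPM of the 17 phosphatase subfamilies, as the mean (bar) and SD (whisker) over 3 libraries with a point per library, and the number of detected of measured members in brackets. The PRL genes sum to 402 TPM, while the CD45 group and the KIM group, named for a kinase interaction motif, hold no detected member.

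Ptpra, the receptor RPTP-alpha that activates Src kinases, was the second gene of the family, with 150.4, 148 and 157 TPM in replicates 1, 2 and 3. The gene lies on chromosome 2, plus strand, from 130450278 to 130556124. Its closest relative Ptpre had 8.36, 9.17 and 9.98 TPM, and the groups of values lay far apart. Ptpra was 16.6 ± 1.18-fold above Ptpre (SD, n = 3), or 3.91 on the log2(TPM + 1) scale, standard error 0.0775 (adjusted p = 9.76e-10, limma), and 95% of genes tested differed from Ptpre. Among 11 genes of Src-family kinases and their control 6 were detected (54.5%), close to the 55.4% of protein-coding genes. Csk, the kinase that writes the phosphate which Ptpra removes, stood at 120.1 ± 1.40 TPM, Src at 44.5 ± 2.96 TPM and Yes1 at 17.4 ± 0.852 TPM (SD, n = 3). Pag1, a membrane anchor of Csk, stood at 0.0688 ± 0.0266 TPM (SD, n = 3).

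Ptprn was the fourth gene of the family by mean, although it was below Ptprs in replicates 1 and 3. It had 83.98, 82.8 and 88.8 TPM in replicates 1, 2 and 3. It encodes IA-2, a catalytically inactive receptor-type protein of dense-core vesicles that is best known from pancreatic islets and neuroendocrine cells and as an autoantigen in type 1 diabetes. The values were tight across libraries, with a coefficient of variation of 3.71%. Its relative Ptprn2 had 0.0525, 0.0751 and 0.0482 TPM. The defining endocrine genes Chga, Ins1, Ins2 and Gcg were listed at 0 in every library, Chgb stood at 0.5004 ± 0.110 TPM, and the synaptic vesicle genes Snap25 and Syp reached 2.64 ± 0.217 and 1.83 ± 0.249 TPM (SD, n = 3). Those 7 markers together summed to 4.598 to 5.27 TPM per library, against at least 82.8 TPM for Ptprn alone. Ptprn lies on the minus strand of chromosome 1 from 75247027 to 75264502. Of its exon bases 189 overlap the antisense gene Gm28294, which has no entry under that symbol among the genes listed. Of the 31-base words of Ptprn, 3.05% occur in another gene.

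The LAR family, receptors for heparan and chondroitin sulfate proteoglycans, was carried by Ptprs and Ptprf. Ptprf had 52.5, 42.3 and 52.3 TPM in replicates 1, 2 and 3, and Ptprs had 88.0, 72.4 and 90.3 TPM. Both were lowest in replicate 2, so their ratio was steadier than either level, at 0.587 ± 0.00899 for Ptprf to Ptprs (SD, n = 3). On the log2(TPM + 1) scale this was -0.76, standard error 0.0827 (adjusted p = 1.03e-05, limma), and 96.8% of genes tested differed from Ptprs. That standard error adds the spreads of both genes and leaves out their shared movement between libraries. The log2 ratios by library were -0.73, -0.76 and -0.78 in replicates 1, 2 and 3. Ptprd, the third member and mainly a neuronal receptor, had 0.214, 0.109 and 0.168 TPM, with a log2 ratio of -6.18 to Ptprs (adjusted p = 5.28e-12, limma), or -8.32 and -4.09 with pseudocounts of 0.1 and 5 TPM. Liprins and Trio, cytoplasmic partners of LAR, were detected for 4 of 7 genes (57.1%), close to the 55.4% of protein-coding genes. Ppfibp1 stood at 102 ± 8.998 TPM, Ppfia1 at 27.6 ± 4.79 TPM and Trio at 21.4 ± 2.83 TPM (SD, n = 3).

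The other receptor-type genes were mostly low or not detected. Ptprg, a receptor with a carbonic anhydrase-like domain, had 39.4, 35.4 and 41.9 TPM in replicates 1, 2 and 3, while its relative Ptprz1, a receptor of neural cells, had a mean of 0.0109 TPM and was listed at 0 in replicate 1. Of the MAM-domain receptors, which bind the same protein on the next cell, Ptprk had 7.05, 7.28 and 8.33 TPM. Ptprm had 0.0158, 0.0210 and 0.0341 TPM, and the log2 ratio of Ptprk to Ptprm on the log2(TPM + 1) scale was 3.06, standard error 0.0736 (adjusted p = 1.08e-10, limma), where 91.3% of 15597 genes tested differed from Ptprm. That ratio was 5.95 with a pseudocount of 0.1 TPM and 1.32 with 5 TPM, so its size rests on the pseudocount. Ptpru and Ptprt stood at 0.0682 and 0.0201 TPM in the mean, so Ptprk was the single detected gene of its group. The R3 group held 6 genes, most of them for receptors with 1 catalytic domain. Of these genes, Ptprj was detected with 11.7, 10.6 and 12.1 TPM and Ptprb with 2.26, 1.95 and 2.16 TPM. Ptprb encodes the vascular endothelial phosphatase. Among 6 endothelial markers, Flt1 was detected at 29.6 ± 2.65 TPM (SD, n = 3), Cldn5 was listed at 0 in every library, and Pecam1, Tek, Cdh5 and Kdr stood at 0.359, 0.0556, 0.0205 and 0.00954 TPM in the mean. The 6 markers summed to 27.3 to 32.3 TPM per library. Ptpro, a podocyte receptor, was listed at 0 in every library, and Ptprh, of intestinal epithelium, in replicates 1 and 2. Ptprq, of the inner ear, had a mean of 0.0336 TPM. Ptprv, annotated as a processed transcript, had 0.0200, 0.415 and 0 TPM, so that its mean rested on replicate 2.

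Of 18 genes for ligands of receptor-type phosphatases, 3 were detected (16.7%), where 55.4% of protein-coding genes were. Gpc1, a heparan sulfate proteoglycan, stood at 47.4 ± 2.45 TPM, Sdc2, another, at 32.3 ± 0.340 TPM and Ptn, the pleiotrophin that binds Ptprz1, at 2.15 ± 0.172 TPM (SD, n = 3). None of the 5 contactin and 6 Slitrk genes, ligands of neural cells, reached 0.1 TPM in the mean. Gpc4, a further heparan sulfate proteoglycan gene, was listed at 0 in every library.

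Genes of leukocyte phosphatases fell on both sides of the detection level. Ptprc, the gene of CD45 and a defining marker of blood cells, had 0.0681, 0.0585 and 0.0328 TPM in replicates 1, 2 and 3. Ptpn6, the SHP-1 phosphatase of blood cells that epithelial cells also make from a second promoter, had 11.7, 12.8 and 10.98 TPM. Ptpn22, the lymphoid member of the PEST family, had 3.47, 4.28 and 4.42 TPM. Of 9 other leukocyte markers 2 were detected, Cd14 at 94.99 ± 2.60 TPM and Cd68 at 2.43 ± 0.849 TPM (SD, n = 3), while Itgb2, Cd79a, Laptm5, Itgam, Csf1r, Lyz2 and Cd3e stood between 0.00457 and 0.326 TPM in the mean. All 9 summed to 95.1 to 101 TPM per library, nearly all of it Cd14. The part of other cell types in the Ptpn6 and Ptpn22 levels was not tested. Of Ptpn6, 195 exon bases overlap the antisense gene Gm20531, which has no entry under that symbol among the genes listed.

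Among the non-receptor members, Ptpn12 led with 83.3, 76.2 and 79.6 TPM in replicates 1, 2 and 3. Its product PTP-PEST acts on adaptors of focal adhesions, and its relative Ptpn18 had 0.210, 0.165 and 0.347 TPM. The log2 ratio of Ptpn12 to Ptpn18 on the log2(TPM + 1) scale was 6.03, standard error 0.0644 (adjusted p = 4.25e-13, limma), where 82.5% of genes tested differed from Ptpn18. With pseudocounts of 0.1 and 5 TPM it was 7.91 and 4.01. A further list joined adhesion substrates in general with partners of the PEST family. Of its 9 genes 7 were detected (77.8%), where 55.4% of protein-coding genes were. Ctnnb1, the beta-catenin gene, stood at 639.9 ± 29.9 TPM, Cttn (cortactin) at 162 ± 7.09 TPM and Ctnnd1 (the p120 catenin gene) at 113.8 ± 5.77 TPM (SD, n = 3). Pstpip1 and Pstpip2, cytoskeletal partners of PTP-PEST known mainly from blood cells, were at 0.331 and 0.245 TPM in the mean.

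Ptpn1 encodes PTP1B, which acts on the insulin receptor, and Ptpn2 encodes TCPTP, which acts on JAK and STAT proteins. Ptpn1 had 26.2, 29.2 and 26.0 TPM in replicates 1, 2 and 3, and Ptpn2 had 50.1, 50.8 and 49.5 TPM. The ranges did not overlap, and Ptpn1 stood at 0.541 ± 0.0294 of the Ptpn2 level (SD, n = 3). On the log2(TPM + 1) scale this was -0.86, standard error 0.0862 (adjusted p = 1.19e-05, limma), and 95.3% of genes tested differed from Ptpn2. Ptpn2 had the lowest coefficient of variation of the family, 1.30%.

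The phosphatases with a FERM domain, which docks proteins under the membrane, were all detected. Ptpn14, a binding partner of YAP, had 21.6, 16.1 and 20.5 TPM in replicates 1, 2 and 3, and Ptpn21 had 17.3, 16.1 and 17.2 TPM. The range of Ptpn14 took in that of Ptpn21, and the log2 ratio of Ptpn14 to Ptpn21 on the log2(TPM + 1) scale was 0.18 (95% interval -0.01 to 0.37, adjusted p = 0.068, limma). Of all genes tested, 94.9% differed from Ptpn21. Without replicate 2 the ratio was 0.27 and passed (adjusted p = 0.0065, limma). Ptpn3 had 12.5, 11.1 and 12.3 TPM and Ptpn4, also with a PDZ domain, had 9.06, 7.16 and 10.4 TPM. Ptpn3 was the higher of the pair in 3 of 3 libraries, by 1.37 ± 0.188-fold (SD, n = 3), with a log2 ratio of 0.40 (adjusted p = 0.0050, limma), where 94.1% of genes tested differed from Ptpn4. In the fit planned first, on ratios of all genes to Ptpn4, this pair missed the threshold without replicate 1, at a log2 ratio of 0.39, and without replicate 2, at 0.32 (adjusted p = 0.12 and 0.052, limma). Ptpn13, a large scaffold phosphatase with FERM and PDZ domains, had 20.4, 17.2 and 22.3 TPM. Its testis relative Ptpn20 was listed at 0 in every library.

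Phosphatases of vesicle traffic were present at intermediate levels. Ptpn9, the secretory vesicle phosphatase MEG2, had 34.2, 33.8 and 34.9 TPM in replicates 1, 2 and 3. Ptpn23, the endosomal sorting protein HD-PTP, had 29.4, 23.8 and 28.9 TPM, lowest in replicate 2. The 3 genes with a kinase interaction motif, whose products dephosphorylate MAP kinases, were not detected. Ptpn5, a brain enzyme, stood at 0.169 TPM, Ptpn7, of blood cells, at 0.121 TPM and Ptprr at 0.0534 TPM in the mean.

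Set against the median detected gene of its library, which stood at 23.4, 21.6 and 23.3 TPM in replicates 1, 2 and 3, members lay on both sides. Of the 29 members with a mean of at least 0.1 TPM, 12 were above that median, where 35% of the 15597 genes tested were, and 17 were below it, where 60% were (adjusted p under 0.05, limma). Among detected members alone 12 were above and 12 below, and 46.7% and 46.5% of all detected genes were, so the members' split was close to the background. Ptp4a2 lay furthest above, by 3.68 with a standard error of 0.0716 on the log2(TPM + 1) scale. Ptprb lay furthest below among detected members, by -2.93 with a standard error of 0.0397. The members nearest the median were Ptpn13 at -0.19, Ptpn14 at -0.23, Ptpn1 at 0.24 and Ptpn23 at 0.25.

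**Figure D3:**
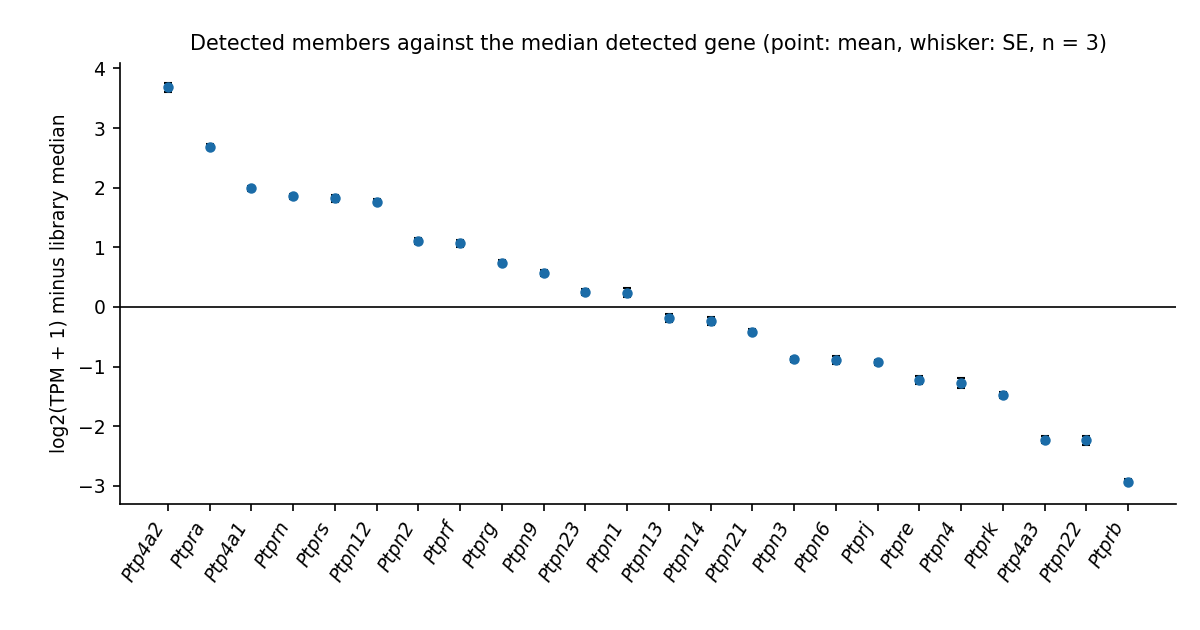
Mean difference in log2(TPM + 1) between each of the 24 detected phosphatase genes and the median detected gene of the same library, with whiskers for the standard error (n = 3). Members run from Ptp4a2 at 3.68 to Ptprb at -2.93, with 12 on either side of the zero line.

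In the order of means, 11 of the 23 pairs of neighbouring detected genes had overlapping ranges over the 3 libraries, so their order was not resolved. These included Ptprn, Ptprs and Ptpn12 at 79.7 to 85.2 TPM in the mean, Ptpn2 and Ptprf at 50.1 and 49.1 TPM, Ptpn23 and Ptpn1 at 27.4 and 27.1 TPM, and Ptpn3, Ptpn6 and Ptprj at 11.5 to 11.9 TPM. Ptp4a2 and Ptpra did not overlap each other or any gene below them. The range of Ptp4a1, at 89.6 TPM in replicate 2, overlapped that of Ptprs, at 90.3 TPM in replicate 3. Within each library Ptp4a1 was above Ptprs, at 96.4 and 88.0, 89.6 and 72.4, and 93.7 and 90.3 TPM in replicates 1, 2 and 3.

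Replicate 2 gave the lowest value for 16 of the 24 detected members, where it did so for 61.1% of all detected genes. Long and short members differed in it. Of 17 members with an annotated transcript of 4000 bases or more, 15 were below the mean of the other libraries in replicate 2, with a median difference of -0.14 on the log2(TPM + 1) scale. Of 7 shorter members 2 were below it, with a median of 0.05. Over all detected genes 88.6% of long and 68.0% of shorter ones were below it, so the share of long members was close to the background. The medians over all detected genes were -0.14 for 3765 long genes and -0.05 for 7495 shorter ones. Ptpn4 differed most, by -0.40, followed by Ptpn14 with -0.37, while Ptpn6 differed by 0.16. The median coefficient of variation of the detected members was 7.46%, against 6.33% for all detected genes, and it was 3.24% without replicate 2. Whether transcript length accounts for these differences was not tested.

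**Figure D4:**
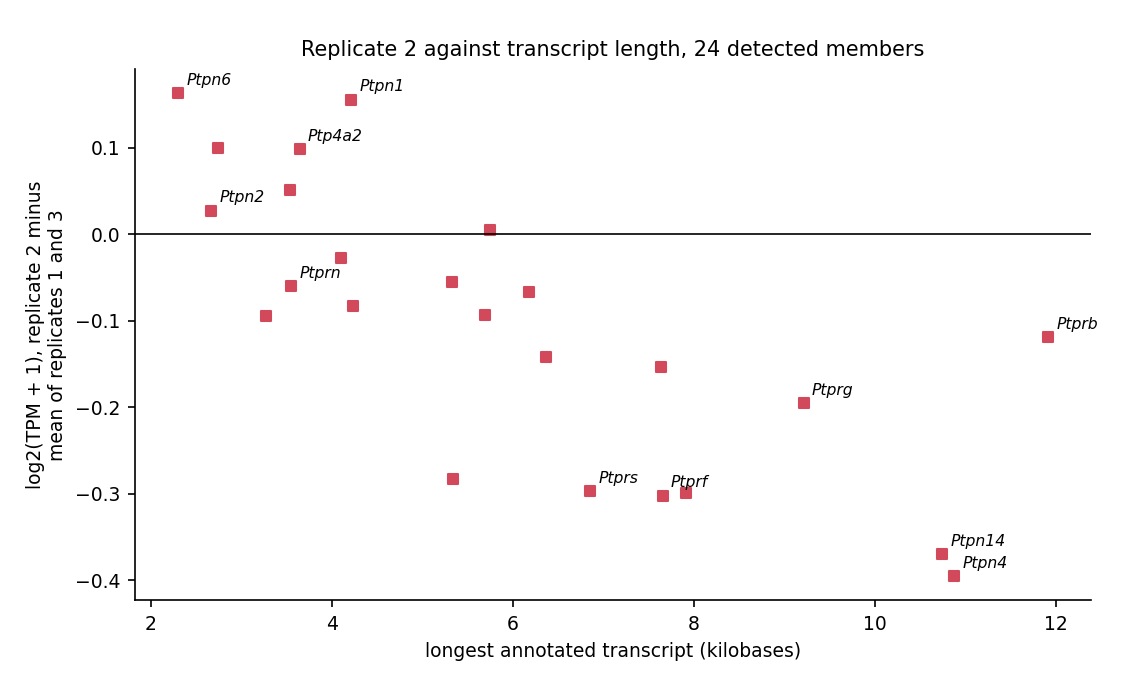
Difference in log2(TPM + 1) between replicate 2 and the mean of replicates 1 and 3 for the 24 detected phosphatase genes, against the longest annotated transcript in kilobases. The longest transcript, that of Ptprb, lies at -0.12, and the next longest, those of Ptpn4 and Ptpn14, at -0.40 and -0.37. Several short ones, such as that of Ptpn6 at 0.16, lie above zero.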

How the data were processed

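Polyadenylated RNA of 3 KPC78 libraries was analysed from the authors' deposited table of TPM per gene symbol. Kallisto 0.44.0, bcl2fastq 2.19 and GRCm38.p6 are named in the submitters' processing notes; the annotation release, the use of strand and the way transcripts were summed are not given in the labels or files. Each column was assigned to a sample through its library name. A second sheet with 3 columns that match no sample label was not used.

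The members, subfamilies, gene pairs and lists were chosen with earlier results of these data known. Means and SDs are over n = 3. Genes were fitted with limma 3.58.1 in R 4.3.3 on log2(TPM + 1), over all genes averaging 0.1 TPM or more. Ptprm, at a mean of 0.0236 TPM, was under that filter and was kept as the reference of its pair. The fits were two-sided, with Benjamini-Hochberg adjustment over all genes tested at a threshold of 0.05. The pseudocount of 1 understates ratios to low genes. Pairs with both means under 1 TPM were not tested, which left out Ptpru against Ptprm. The pair fit planned first took ratios of all genes to 1 gene. Those ratios share that gene's spread, which in most fits inflated the degrees of freedom. The p-values and standard errors printed for pairs therefore come from a contrast added after the data were seen. It is the difference of 2 genes' means, with the spread of both from the fit against the library median. The contrast adds the 2 spreads as if independent, so it ignores movement that both genes share between libraries. The procedures were also run on simulated data with independent noise for each gene. Those runs could not test the effect of a shared spread, and the run of the contrast held no low genes. The labels do not say how the cultures were separated, so p-values measure only the spread between these libraries, and no p-value covers bias of 1 gene's TPM against another.

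Every member was named; for each other list the 3 detected genes of highest mean were named, except where a gene is not reported here, and the markers and further low genes were named after their values were seen. Coordinates and transcript lengths are from GENCODE M21 on GRCm38, which holds all 40 members, and promoters are from RefSeq on GRCm38.p6. The bounds of 20 CG pairs and 4000 bases, and the genes whose promoters are printed, were chosen after the values were seen. Words of 31 bases were compared over GENCODE transcripts. Python 3.11.15 and pandas 2.3.3 were used.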

Additional observations from a re-analysis of the deposited data

How the results depend on the processing

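All 3 libraries belong to a single group, so samples could not be paired between groups. Genes were paired within each library in the fit planned first. Over the planned settings (pseudocounts of 0.1 and 5 TPM, no filter or a filter at 1 TPM, rescaled TPM, a trended prior spread and leaving out each replicate), no pair changed direction, and 8 of the 10 tested pairs passed throughout, although Ptprd to Ptprs had no value with the filter at 1 TPM. The exceptions were the FERM-domain pairs, and the causes were not tested. The log2 ratio of Ptpn14 to Ptpn21 passed at 0.15 with a pseudocount of 5 and at 0.18 with a trended prior, and ranged from 0.12 to 0.27 when 1 replicate was left out (adjusted p = 0.011 to 0.26 in the planned limma fit and 0.0065 to 0.31 in the added contrast). That of Ptpn3 to Ptpn4 ranged from 0.32 to 0.49, and in the planned fit it missed the threshold without replicate 1 and without replicate 2 (adjusted p = 0.12 and 0.052, limma), while the contrast passed each time (0.0018 to 0.022). Members below the median numbered 17 in the main fit and 26 with no filter, since that fit tested more genes. They numbered 12 with the filter at 1 TPM, 15 with a pseudocount of 0.1 TPM or rescaled TPM, and 14 to 16 without 1 replicate. The 12 members above the median stayed 12 in number under every setting. Detected members numbered 24 at a minimum of 0.5 TPM and 21 at 5 TPM. Rescaling TPM without 439 mitochondrial and ribosomal protein genes raised the members' sum to 1575 TPM and shifted the median detected gene by 0.43 on the log2 scale; leaving out a replicate gave sums of 1132 to 1170 TPM. The median coefficient of variation ranged from 3.24% without replicate 2 to 7.64%.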

Other observations

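Phosphatases of other families that also act on tyrosine were widely present in KPC78 cells. Of 11 such genes 10 were detected, where 32.6% of all genes and 55.4% of protein-coding genes were. Acp1, the low molecular weight phosphatase, stood at 81.7 ± 4.69 TPM and Cdc25b, an activator of cyclin-dependent kinases, at 81.0 ± 0.994 TPM (SD, n = 3). Among the Eya genes, Eya3 and Eya1 stood at 25.1 ± 1.32 and 21.4 ± 1.22 TPM (SD, n = 3) and Eya4 at 0.0260 TPM in the mean.

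The phosphatase genes shared few 31-base words with other annotated genes. Ptprr shared most, 11.8%, of which 10.5% was with the overlapping gene 4933416C03Rik, and Ptprj shared 11.5%, most of it (8.13%) with Gm13768, a pseudogene listed at 0 in every library. Ptp4a1 and Ptp4a2 shared 8.50% and 3.80%, mainly with the processed pseudogenes Gm15801 and Gm13422, which stood at 0.0435 and 0.0426 TPM in the mean.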
